A study of Mus musculus with 12 samples.

Results

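DNAJ (HSP40) proteins are co-chaperones of HSP70. Each carries a J domain, which stimulates the ATPase of HSP70 so that HSP70 closes on its client, and many also bind unfolded clients themselves and hand them over. Class A and class B members keep the client-binding architecture of bacterial DnaJ in full or in part, while class C members share little beyond the J domain and place HSP70 at a given site, such as the ribosome, the ER lumen, the mitochondrial import channel or a clathrin-coated vesicle. In neurons the family is known for guarding against aggregation of misfolded proteins and for the upkeep of synaptic vesicles. The genes described here are the protein-coding mouse genes with a symbol of the form Dnaja, Dnajb or Dnajc followed by a number, which gave 45 of the 27179 genes in the counts, 4 of class A, 13 of class B and 28 of class C. J-domain proteins with other names, such as Gak, Sec63 and Hscb, were not included.

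The RNA came from primary hippocampal neurons of newborn mice, given as C57BL/6 in the labels of all 12 libraries (the study's methods also name FVB mice as a source), plated on Transwell inserts, whose porous membrane lets neurites (axons and dendrites) grow through while the somas stay on top. At day 17 or 18 of culture the neurons received the solvent DMSO (Ctrl) or the proteasome inhibitor MG132 at 10 µM for 7 h, and the 2 faces of the membrane were lysed separately. PolyA RNA-Seq gave 3 libraries for each of the 4 groups, somas and neurites of Ctrl cultures and of MG132 cultures. No allele or transgene is named for any group, and the labels do not say which libraries came from the same preparation.

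Total counts ranged from 4247610 to 22166347 per library, and the most abundant gene, an unnamed locus listed by Entrez identifier, took 12.4% to 33.4% of them. Mitochondrial genes took 9.78% to 29.2%. All 10 neuron markers, among them Map2, Snap25 and Syt1, were detected in each group, with summed levels of 1260 to 1840 CPM (read counts scaled to a common library total) in Ctrl somas, 982 to 1850 in Ctrl neurites, 988 to 1520 in MG132 somas and 890 to 1540 in MG132 neurites. The cultures also held other cells. The 8 astrocyte markers were all detected, summed to 4740 to 5830 CPM in Ctrl somas and 20900 to 25800 in Ctrl neurites, and to 2490 to 3240 and 9660 to 19700 after MG132. The 8 microglia markers summed to 568 to 712 CPM in Ctrl somas, 577 to 1110 in Ctrl neurites, 160 to 268 in MG132 somas and 93.7 to 212 in MG132 neurites, and the 8 oligodendrocyte lineage markers to 1460 to 6370, 5000 to 22000, 513 to 5960 and 2860 to 16000. Of the 5 nuclear RNAs listed, which include Malat1 and Meg3, the summed level was 5840 to 7020 CPM in Ctrl somas and 1810 to 4000 in Ctrl neurites, and 7520 to 8910 and 2030 to 4040 after MG132. These marker levels move with compartment and treatment, and their part in the results below was not tested. In such bulk RNA, fewer cells of a type and less RNA per cell cannot be told apart.

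Of the 45 genes, 39 had enough counts to be tested among 14185 genes. The other 6 were nearly silent. Dnajb3 had 56 counts over all 12 libraries, Dnajc22 had 53, Dnajb7 had 12, Dnajc5b had 9 and Dnajb8 had 2. Dnajc5g had 0 of 115846180 counts, which allows a level of up to 0.0259 CPM. Members were tested with edgeR's quasi-likelihood test in 1 model over all 12 libraries, with p-values adjusted by the Benjamini-Hochberg method over all 14185 genes, and a gene was called at an adjusted p under 0.01 and a change of more than 1.7-fold. CPM values are scaled by edgeR's TMM factors, log2 fold changes come from the model, and SE is the standard error of the log2 fold change. The model did not pair libraries by replicate number, and a fit that did is given where it changed a call.

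The summed level of the family was higher after MG132. The 45 genes together took 1497 to 1543 CPM in Ctrl somas and 2267 to 2653 in MG132 somas, and 1529 to 1680 in Ctrl neurites and 2811 to 3175 in MG132 neurites. MG132 libraries lay above all Ctrl libraries of their compartment, and the same held for the share of all counts without TMM factors, which was 1815 to 2219 CPM in Ctrl somas against 2695 to 3519 in MG132 somas, and 1037 to 1473 in Ctrl neurites against 1801 to 2808 in MG132 neurites. The order of the compartments did depend on the scaling, since MG132 neurites lay above MG132 somas with TMM factors and overlapped them, at lower values, without. Most of the increase lay with the cytosolic and nuclear members, which went from 401 to 437 CPM in Ctrl somas to 1014 to 1371 in MG132 somas. In neurites these members took 390 to 474 CPM without and 1214 to 1513 with MG132. ER members went from 589 to 642 CPM in Ctrl somas to 658 to 705 in MG132 somas, while the ranges in neurites were 576 to 674 without and 787 to 876 with MG132. With TMM factors, members of the ribosome, splicing and chromatin differed most by compartment, with 71.8 to 96.5 CPM in Ctrl somas, 171 to 189 in Ctrl neurites, 116 to 136 in MG132 somas and 389 to 433 in MG132 neurites. The sums by role were taken with TMM factors only, so these differences between compartments may depend on the scaling too.

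**Figure D1:**
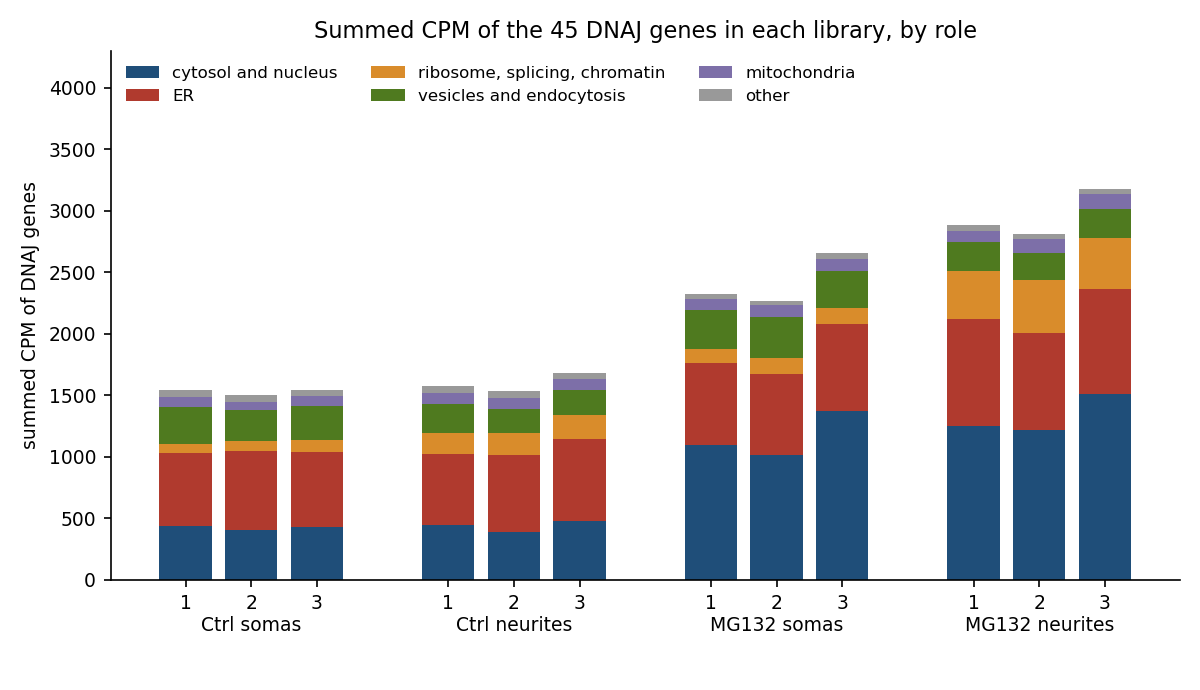
Summed CPM of the 45 DNAJ genes in each of the 12 libraries, stacked by role; the x axis gives the replicate number within each group and the y axis CPM scaled by TMM factors. Totals lie between 1497 and 1680 in the 6 Ctrl libraries and between 2267 and 3175 in the 6 MG132 libraries, and the cytosolic and nuclear block grows most.

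In somas, 9 of the 39 tested members rose after MG132 (Dnaja1, Dnaja2, Dnaja4, Dnajb1, Dnajb2, Dnajb4, Dnajb9, Dnajc2 and Dnajc11) and 1 fell (Dnajc10), or 23.1% and 2.56%. Over all tested genes 9% were called higher and 5.58% lower in that comparison. In neurites, 11 members rose (the same set without Dnajb2, and with Dnajb11, Dnajc7 and Dnajc8), or 28.2%, and 0 fell, where 9.25% of all tested genes were called higher and 5.44% lower. Thus 8 members were called higher in both compartments, 1 in somas alone and 3 in neurites alone, a split that is not by itself a difference between compartments. The median log2 fold change of the 39 members was 0.16 in somas and 0.23 in neurites, beside -0.07 and -0.16 over all tested genes. The log2 fold change was above 0 for 21 of the 39 in somas and for 23 in neurites. Of class A, 3 of 4 members rose in each compartment, of class B 4 of 10, and of class C 2 of 25 in somas and 4 of 25 in neurites.

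**Figure D2:**
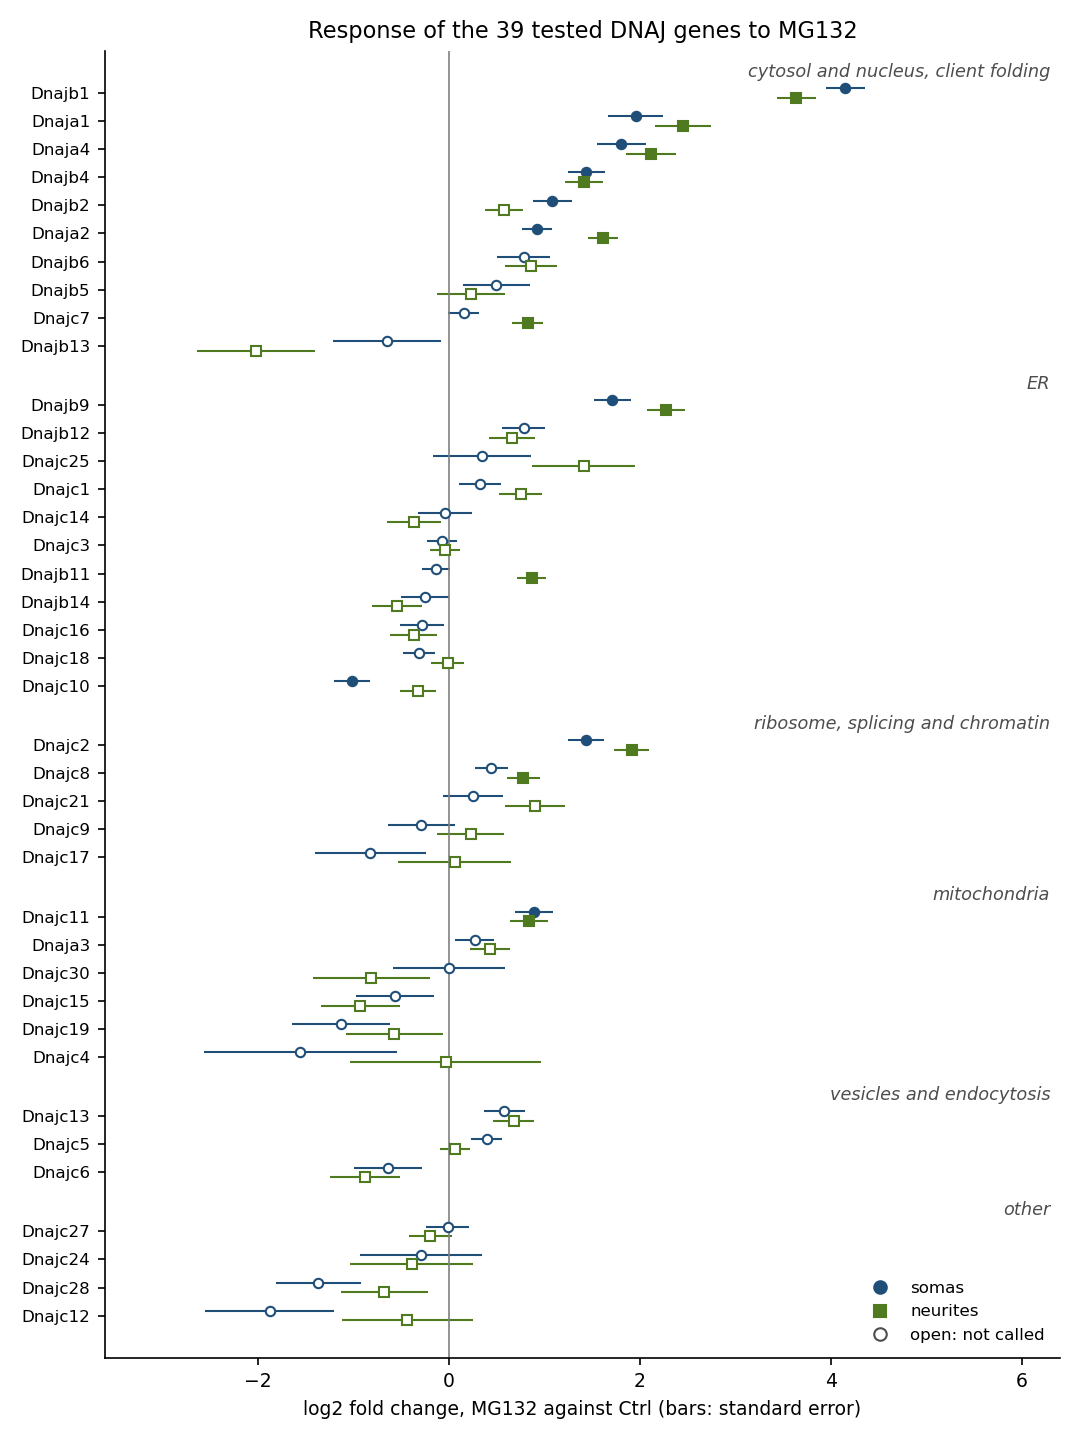
Log2 fold change of MG132 against Ctrl for the 39 tested DNAJ genes in somas (circles) and neurites (squares), grouped by role, with bars for the standard error; filled symbols were called (adjusted p under 0.01 and more than 1.7-fold). Dnajb1 stands farthest to the right at 4.15 and 3.64, and the filled symbols lie mostly in the cytosolic and nuclear group.

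The cytosolic and nuclear members held most of the calls. Of their 10 tested genes, 6 rose in somas and 6 in neurites, and 0 fell in either, with medians of 1.01 and 1.14 on the log2 scale. That was 60% in each compartment, beside 9% and 9.25% of all tested genes. Dnajb1 (HSP40, the classic stress-inducible partner of HSP70 and HSC70) changed most. It measured 13.6, 14.3 and 15.7 CPM in the Ctrl somas and 209, 262 and 303 in the MG132 somas, and 14.8, 12.3 and 10.6 in the Ctrl neurites and 138, 163 and 167 in the MG132 neurites. Every MG132 library lay far above every Ctrl library, and the MG132 somas lay above the MG132 neurites. The increase was 4.15 (SE 0.20, adjusted p = 1.33e-08) in somas and 3.64 (SE 0.20, adjusted p = 5.67e-08) in neurites. Per merged exon length, Dnajb1 made up 1.31% to 1.47% of the family in Ctrl somas and 12.4% to 15.8% in MG132 somas, and 0.893% to 1.33% and 6.19% to 7.61% in neurites. With the mean transcript length instead, the shares were lower, at 0.583% to 0.647% and 5.83% to 7.60% in somas and 0.383% to 0.588% and 2.80% to 3.39% in neurites.

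Dnaja1, a farnesylated class A co-chaperone that works with HSC70 in the cytosol, measured 46.01, 40.6 and 28.6 CPM in the Ctrl somas and 146, 101 and 202 in the MG132 somas, and 30.4, 45.4 and 44.7 in the Ctrl neurites and 172, 188 and 302.2 in the MG132 neurites. The MG132 libraries lay above the Ctrl libraries in both compartments, although they spread widely, and replicate 3 was the highest in each MG132 group. The increase was 1.96 (SE 0.29, adjusted p = 0.000214) in somas and 2.45 (SE 0.29, adjusted p = 3.5e-05) in neurites. When its longest transcript was read in 75-base windows, 26.2% of them were found in other genes too, among them 3 Gm loci and Smu1 on the opposite strand, so part of its reads may have gone uncounted or been shared.

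Dnaja4, another class A member, measured 42.3, 46.3 and 56.97 CPM in the Ctrl somas and 165, 139 and 205 in the MG132 somas, and 32.2, 24.1 and 51.2 in the Ctrl neurites and 166, 123 and 179 in the MG132 neurites. The groups did not overlap in either compartment. It rose by 1.81 (SE 0.26, adjusted p = 0.000166) in somas and 2.12 (SE 0.26, adjusted p = 4.38e-05) in neurites. Of its exonic bases, 44.1% overlap Wdr61 on the opposite strand, and without a stated strand setting reads of the overlap cannot be assigned to either gene.

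Dnajb4, a close relative of Dnajb1, measured 57.8, 69.6 and 63.4 CPM in the Ctrl somas and 165, 138 and 214 in the MG132 somas, and 45.2, 40.3 and 39.8 in the Ctrl neurites and 105, 93.7 and 136 in the MG132 neurites. Its MG132 libraries stood apart from the Ctrl libraries on each side of the membrane. The increase was nearly equal, 1.44 (SE 0.19, adjusted p = 0.000112) in somas and 1.42 (SE 0.20, adjusted p = 0.000111) in neurites.

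Dnaja2, a class A member that drives client refolding by HSC70 with its client-binding domains, measured 117, 112 and 116 CPM in the Ctrl somas and 208, 209 and 237.2 in the MG132 somas, and 136, 117 and 147 in the Ctrl neurites and 378, 395 and 454 in the MG132 neurites. The Ctrl neurites lay at or just above the Ctrl somas, the MG132 somas above both, and the MG132 neurites higher still without overlap. It rose by 0.92 (SE 0.15, adjusted p = 0.000519) in somas and 1.62 (SE 0.16, adjusted p = 5.76e-06) in neurites.

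Dnajb2 encodes HSJ1, a neuron-enriched member with ubiquitin-interacting motifs that directs clients to the proteasome. It measured 21.4, 20.3 and 27.4 CPM in the Ctrl somas and 48.4, 39.8 and 58.1 in the MG132 somas, and 39.9, 34.2 and 47.2 in the Ctrl neurites and 56.97, 58.2 and 65.97 in the MG132 neurites. The groups did not overlap in either compartment, but the Ctrl neurites already lay above the Ctrl somas. It rose in somas by 1.09 (SE 0.21, adjusted p = 0.00133). In neurites the difference was 0.58 (SE 0.20, adjusted p = 0.0477), which is under both thresholds of the call.

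Dnajc7, a TPR-domain protein that binds HSP70 and HSP90 together, measured 76.8, 65.6 and 81.4 CPM in the Ctrl somas and 83.6, 68.9 and 96.5 in the MG132 somas, and 91.4, 82.4 and 92.5 in the Ctrl neurites and 166, 152 and 154 in the MG132 neurites. The 3 MG132 neurites libraries stood above the other 9. It rose in neurites by 0.83 (SE 0.16, adjusted p = 0.00174), and in somas the difference was 0.16 (SE 0.16, adjusted p = 0.51). Without Ctrl neurites replicate 2 the neurites value was 0.78 with an adjusted p of 0.0103, so that call was lost. It was also lost with total counts (0.68, adjusted p = 0.123) and, on fold size, when at least 10 counts were required in every library (0.72). Of the 75-base windows of the longest Dnajc7 transcript, 13.3% also occurred in Cnp or Nkiras2, on the opposite strand. Part of its reads may therefore have gone uncounted or been shared.

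Among the other tested cytosolic members, Dnajb6, a suppressor of polyglutamine aggregation, differed by 0.79 (SE 0.27, adjusted p = 0.0451) in somas and 0.86 (SE 0.28, adjusted p = 0.0314) in neurites and was not called. Nor was Dnajb5, at 0.50 and 0.23 on the log2 scale. Of the 75-base windows of the longest Dnajb6 transcript, 39.5% also occurred in other genes, among them Cyyr1 and several Gm loci. Part of the Dnajb6 reads may therefore have gone uncounted or been shared. Dnajb13, a component of the radial spokes of motile cilia rather than a known folding factor, had the lowest neurites value, at -2.02 (SE 0.62, adjusted p = 0.0245), with 3.53 to 8.72 CPM in Ctrl neurites and 0.228 to 2.31 in MG132 neurites. DESeq2 called Dnajb13 lower in neurites, at -2.06 with an adjusted p of 0.00311. The 7 listed markers of motile-ciliated cells moved alongside it, with a summed level of 69.9 to 152 CPM in Ctrl neurites, 21.6 to 45.3 in MG132 neurites, 150 to 181 in Ctrl somas and 47.8 to 67.8 in MG132 somas, and with Mcidas at 0 in every group. Their part in the value of Dnajb13 was not tested.

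**Figure D3:**
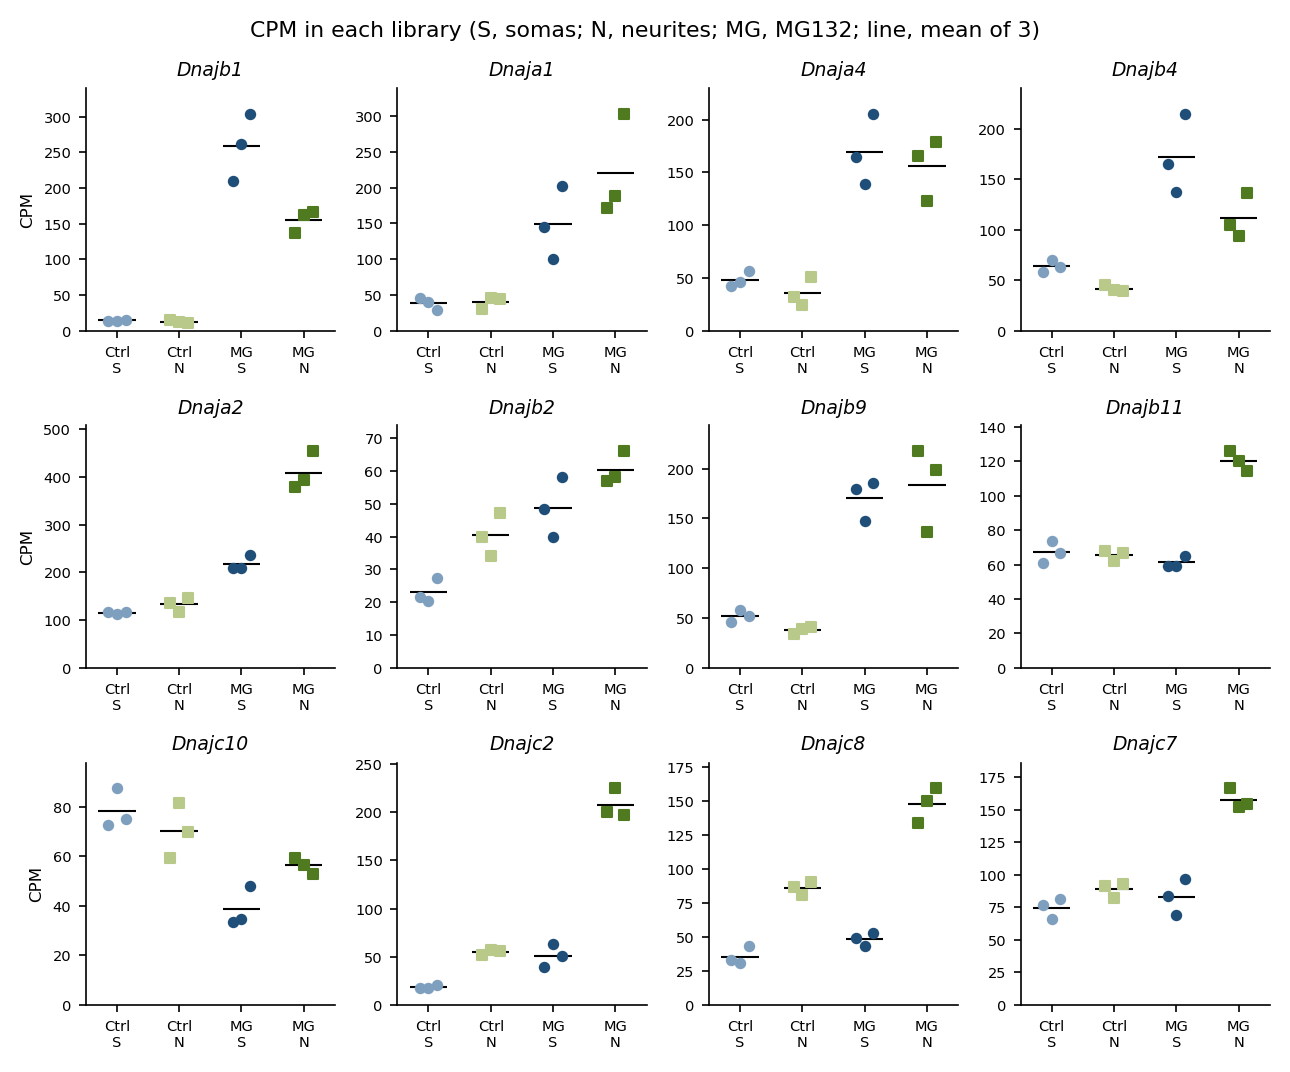
CPM of 12 called DNAJ genes in each library (points) with the group mean (line); each panel has its own linear axis from 0, and the x axis gives Ctrl and MG132 (MG) somas (S) and neurites (N). Dnajb1 rises from at most 15.7 CPM to at least 138, Dnajb11 and Dnajc7 are high in the 3 MG132 neurites libraries, and Dnajc10 is low in the 3 MG132 somas libraries.

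Heat shock factor 1 is the transcription factor best known for inducing cytosolic chaperones when proteins misfold, and it binds arrays of the unit GAA and its reverse complement TTC. Since the cytosolic members moved most, their promoters were read for these letters. RefSeq promoters (GRCm38.p6, from 250 bases before to 50 after each start) were matched to 37 of the 45 members, with 50 promoters in all. An array of 2 units, GAANNTTC or TTCNNGAA, both of which read the same on both strands and may overlap in longer arrays, was present in 15.1% of all 32851 promoters and in 11.7% of the 14164 promoters of tested genes. It was present in 8 of the 50 member promoters, or 16%, and in 3 of the 17 promoters of members called higher, or 17.6%. The 3 genes called higher with a match are shown because they are the risers that carry these letters. The 100 bases before the gene start of Dnajb1, the largest riser, follow, and hold single units but no array. Capitals mark the letters of the matched units, and single units in Dnajb1.
Dnaja1 (chr4:40722333-40722362, plus strand): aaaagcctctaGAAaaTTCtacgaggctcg
Dnaja4 (chr9:54699458-54699525, plus strand): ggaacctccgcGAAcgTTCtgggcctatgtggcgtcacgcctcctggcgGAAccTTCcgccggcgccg
Dnajb4 (chr3:152193846-152193870, minus strand): ttcgttcgctgTTCtaGAAagtaca
Dnajb1 (chr8:83608075-83608174, plus strand): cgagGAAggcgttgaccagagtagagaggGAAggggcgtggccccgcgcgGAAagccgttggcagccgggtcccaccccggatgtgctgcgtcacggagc
The Dnaja1 stretch also lies in an exon of a noncoding Dnaja1 transcript of GENCODE. Dnaja4 holds 2 arrays, and Dnaja1 and Dnajb4 hold 1 each. The longer array of 3 units, GAANNTTCNNGAA on either strand, which contains both 2-unit arrays, was present in 0.603% of all promoters and, among the members, in both promoters of Dnajb6, which share the site and whose gene was not called in either compartment. The ER stress element (CCAAT, 9 free bases, CCACG, either strand) was present in 0.119% of all promoters and, among the members, in Dnajc3 alone. These last sites are shown because they are the fullest matches in the family and belong to genes that were not called.
Dnajb6 (chr5:29735844-29735872, plus strand): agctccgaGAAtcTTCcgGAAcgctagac
Dnajc3 (chr14:118937816-118937856, plus strand): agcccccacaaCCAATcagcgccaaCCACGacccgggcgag
A match describes these letters in these windows and no more. Counted by gene, 3 of the 10 risers with a promoter in the table and 4 of the 27 other members held an array of 2 units, and the risers Dnajc2 and Dnajc11 had no entry. Those 4 were Dnajb6, Dnajc10, Dnajc27 and Dnajc5g, of which Dnajc10 was the member called lower in somas.

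Some of the ER members supply J domains that BiP (Hspa5) works with in the ER. Of 11 tested, 1 rose and 1 fell in somas and 2 rose in neurites, with medians of -0.07 and -0.01 on the log2 scale. In somas that was 9.09% higher and 9.09% lower, beside 9% and 5.58% of all tested genes. In neurites it was 18.2% higher and 0% lower, beside 9.25% and 5.44%. The medians over all tested genes were -0.07 and -0.16, so the ER median in somas was that of all tested genes. Dnajb9 (ERdj4, a target of the unfolded protein response that restrains IRE1) measured 46.3, 57.7 and 52.2 CPM in the Ctrl somas and 179, 147 and 185 in the MG132 somas, and 33.6, 38.99 and 40.5 in the Ctrl neurites and 217, 136 and 198 in the MG132 neurites. All MG132 libraries lay above all Ctrl libraries. It rose by 1.71 (SE 0.19, adjusted p = 2.79e-05) in somas and 2.28 (SE 0.20, adjusted p = 2.41e-06) in neurites.

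Dnajb11 (ERdj3, which binds nascent clients for BiP) was called in neurites and not in somas. It measured 60.98, 73.99 and 66.6 CPM in the Ctrl somas and 59.4, 59.03 and 65.2 in the MG132 somas, and 68.2, 62.3 and 67.02 in the Ctrl neurites and 126, 120.3 and 114 in the MG132 neurites. The 3 MG132 neurites libraries stood above the other 9, which overlapped one another. It rose in neurites by 0.87 (SE 0.15, adjusted p = 0.000586), and in somas the difference was -0.13 (SE 0.15, adjusted p = 0.546), lower in 3 of 3 same-numbered pairs although the groups overlapped. The neurites call was lost with total counts (0.73, adjusted p = 0.0973) and, on fold size, with at least 10 counts in every library (0.76). The difference between the 2 responses was 0.9997 (SE 0.21, adjusted p = 0.328), which missed the threshold. DESeq2 gave 1.04 for the same contrast with an adjusted p of 0.0016 and called it.

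Dnajc10 (ERdj5, a disulfide reductase that helps clients leave the ER for degradation) was the only member called lower in somas. It measured 72.7, 87.5 and 75.04 CPM in the Ctrl somas and 33.5, 34.7 and 48.04 in the MG132 somas, and 59.5, 81.5 and 69.9 in the Ctrl neurites and 59.5, 56.5 and 53.03 in the MG132 neurites. The MG132 somas lay below the Ctrl somas without overlap, while the neurites groups met at replicate 1, where the values were equal to the digits given. The change was -1.01 (SE 0.19, adjusted p = 0.00117) in somas, and the neurites difference was -0.32 (SE 0.19, adjusted p = 0.221). The somas call was lost with total counts (-1.04, adjusted p = 0.0314), as were those of Dnaja2 (0.90, adjusted p = 0.0407) and Dnajb2 (1.08, adjusted p = 0.0254). With the replicate number as a block, Dnajc28 was also called lower in somas, at -1.48 with an adjusted p of 0.0088. DESeq2 called it lower as well, at -1.43 with an adjusted p of 0.00791.

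The other ER members were not called in either response. Dnajc3 (p58IPK, an ER co-chaperone induced by the unfolded protein response) measured 185 to 229 CPM in Ctrl somas, 175 to 225 in MG132 somas, a mean of 251 ± 3.36 in Ctrl neurites (SD, n = 3) and 225 to 260 in MG132 neurites, and its groups overlapped within each compartment, with log2 differences of -0.07 and -0.04 (SE 0.16 in each). Dnajb12, a membrane-anchored member that acts in ER-associated degradation, was higher in every MG132 library of each compartment, at 0.78 (SE 0.23, adjusted p = 0.0194) in somas and 0.66 (SE 0.24, adjusted p = 0.0493) in neurites, and was called in somas with the replicate block, at 0.80 with an adjusted p of 0.00962. The remaining members, Dnajb14, Dnajc1, Dnajc14, Dnajc16, Dnajc18 and Dnajc25, lay between -0.31 and 0.35 on the log2 scale in somas and between -0.54 and 1.41 in neurites. Dnajc1, at 0.75 (SE 0.22, adjusted p = 0.0204) in neurites, was just under the fold threshold and was called with the block, at 0.78 with an adjusted p of 0.000968.

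Among the 5 members of the ribosome, splicing and chromatin, 1 rose in somas and 2 in neurites. That was 20% and 40% of a small group, beside 9% and 9.25% of all tested genes. Dnajc2 (MPP11, the ribosome-associated J protein that recruits HSP70 to nascent chains) had the clearest pattern by compartment. It measured 17.8, 17.6 and 20.9 CPM in the Ctrl somas and 39.5, 62.99 and 50.7 in the MG132 somas, and 51.5, 57.1 and 55.9 in the Ctrl neurites and 200.5, 225 and 197 in the MG132 neurites. The Ctrl somas were lowest, the MG132 neurites highest by a wide gap, and the Ctrl neurites and MG132 somas overlapped between them. It rose by 1.44 (SE 0.18, adjusted p = 7.38e-05) in somas and 1.92 (SE 0.18, adjusted p = 5.31e-06) in neurites. Dnajc8, a splicing-related J protein of the nucleus, measured 32.8, 30.8 and 43.1 CPM in the Ctrl somas and 48.9, 42.98 and 53.1 in the MG132 somas, and 86.7, 80.5 and 90.7 in the Ctrl neurites and 134, 150.4 and 159 in the MG132 neurites. The neurites libraries lay above the somas libraries in both conditions. It rose in neurites by 0.78 (SE 0.17, adjusted p = 0.00327), close to the fold threshold, and in somas the difference was 0.45 (SE 0.17, adjusted p = 0.065). Its neurites call was lost with DESeq2 (0.76), with each other scaling tried (0.64 to 0.76), with at least 10 counts in every library (0.67) and in 3 of the 6 fits that left out 1 library (Ctrl replicate 1, Ctrl replicate 2 or MG132 replicate 2), with adjusted p up to 0.0165. Dnajc21, a factor of ribosome assembly, was at 0.91 (SE 0.32, adjusted p = 0.0466) in neurites and was called with the replicate block, at 0.95 with an adjusted p of 0.0058. Dnajc9, a histone co-chaperone, and Dnajc17 were not called, at -0.29 and -0.82 in somas and 0.23 and 0.06 in neurites.

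The 6 mitochondrial members had 16.7% called higher in each compartment, beside 9% of all tested genes in somas and 9.25% in neurites. Only Dnajc11, which is associated with the complex that shapes the cristae, was called. It measured 25.6, 22.04 and 25.7 CPM in the Ctrl somas and 42.3, 51.5 and 42.5 in the MG132 somas, and 29.9, 33.6 and 24.9 in the Ctrl neurites and 41.9, 58.6 and 57.3 in the MG132 neurites. The MG132 libraries lay above the Ctrl libraries in both compartments. It rose by 0.89 (SE 0.20, adjusted p = 0.00425) in somas and 0.84 (SE 0.20, adjusted p = 0.00638) in neurites, and the call was lost in 6 of 6 fits without 1 somas library and in 4 of 6 without 1 neurites library (Ctrl replicate 1, Ctrl replicate 3, MG132 replicate 2 or MG132 replicate 3), with adjusted p up to 0.0195 and 0.0323. Both Dnajc11 calls were also lost with total counts, at 0.86 (adjusted p = 0.0836) in somas and 0.70 (adjusted p = 0.157) in neurites. The same held for totals without the most abundant gene and mitochondrial genes, at 0.80 (adjusted p = 0.0116) and 0.77 (adjusted p = 0.0145). The neurites call was lost as well with at least 10 counts in every library and when only the libraries compared were fitted. Dnaja3 (TID1, the class A member of the matrix) was at 0.27 and 0.43 on the log2 scale. The import-motor members Dnajc15 and Dnajc19, together with Dnajc4 and Dnajc30, lay between -1.55 and 0.00 on the log2 scale in somas and between -0.92 and -0.03 in neurites. None of the 3 tested vesicle members was called. Dnajc5 (cysteine string protein, which keeps SNARE proteins folded at the synapse) was at 0.40 in somas and 0.07 in neurites, and Dnajc13, an endosomal protein, at 0.58 and 0.68. Dnajc6 (auxilin, which uncoats clathrin-coated vesicles in neurons) was at -0.63 in somas and -0.87 (SE 0.37, adjusted p = 0.093) in neurites. With the replicate block Dnajc6 was called lower in neurites, at -0.89 with an adjusted p of 0.000788. Replicate 1 held its highest value in all 4 groups. Dnajc12, Dnajc24, Dnajc27 and Dnajc28 were not called, with all 4 below 0 on the log2 scale in both compartments, at -1.88 to -0.01 in somas and -0.67 to -0.19 in neurites.

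The HSP70 partners of these co-chaperones gave a reference. Of 24 tested HSP70, HSP110 and nucleotide exchange factor genes, 11 rose in somas and 9 in neurites, and 0 fell. That was 45.8% and 37.5%, beside 23.1% and 28.2% of the DNAJ members and 9% and 9.25% of all tested genes. Hspa8 (HSC70, the constitutive cytosolic HSP70) measured 135, 149 and 141 CPM in Ctrl somas and 490, 542 and 633 in MG132 somas, and 136, 117 and 130 in Ctrl neurites and 636, 686 and 971 in MG132 neurites. Its log2 fold changes of 1.97 (SE 0.19) and 2.58 (SE 0.19) were near those of Dnaja1. Hspa1a (the inducible HSP70) rose by 8.75 and 9.15 from at most 2.21 CPM in any Ctrl library, more than any DNAJ gene, and its reads may be shared with its near-identical copy Hspa1b. Hspa9 (the mitochondrial HSP70) rose by 1.36 and 1.74, above each mitochondrial DNAJ gene, and Hspa5 (BiP) by 0.93 and 0.99, below Dnajb9 in both compartments.

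In Ctrl cultures, the share of members called between neurites and somas was near that of all tested genes. The comparisons between compartments use the same libraries as the responses above and are not independent of them. Of 39 members, 2 were called higher in neurites (Dnajc2 and Dnajc8), or 5.13%, and 0 lower, where 6.15% of all tested genes were called higher and 1.28% lower. Dnajc2 was higher by 1.55 (SE 0.18, adjusted p = 4.01e-05), and Dnajc8 by 1.27 (SE 0.17, adjusted p = 0.000117), each in 3 of 3 same-numbered pairs. Dnajb2 was at 0.81 (SE 0.21, adjusted p = 0.0151) and missed the threshold on p. With the replicate block, 2 members were also called lower in neurites, Dnajc6 at -1.03 with an adjusted p of 0.000201 and Dnajc16 at -1.01 with an adjusted p of 0.00439, and Dnajb2 was called higher, at 0.81 with an adjusted p of 0.00116. DESeq2 called Dnajc16 lower too, at -1.04 with an adjusted p of 0.000717, and Dnajb2 higher, at 0.77 with an adjusted p of 0.00481.

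After MG132, 6 members were called higher in neurites (Dnaja2, Dnajb11, Dnajc1, Dnajc2, Dnajc7 and Dnajc8), or 15.4%, and 1 lower (Dnajc16), or 2.56%, beside 6.92% and 2.08% of all tested genes. Dnajc2 was higher by 2.03 (SE 0.18, adjusted p = 5.47e-06) and Dnajc8 by 1.61 (SE 0.17, adjusted p = 1.96e-05). Dnajb11 followed at 0.97 (SE 0.15, adjusted p = 0.000368), Dnajc7 at 0.92 (SE 0.16), Dnaja2 at 0.90 (SE 0.15) and Dnajc1, an ER membrane J protein that binds ribosomes, at 0.92 (SE 0.22). Dnajc1 measured 39.7, 35.2 and 41.5 CPM in the Ctrl somas and 54.8, 35.9 and 55.4 in the MG132 somas, and 50.5, 42.5 and 72.2 in the Ctrl neurites and 82.95, 91.8 and 103 in the MG132 neurites. Its somas and neurites did not overlap in either condition.

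Dnajc16, a transmembrane ER member, measured 24.4, 24.5 and 26.9 CPM in the Ctrl somas and 19.96, 20.2 and 22.2 in the MG132 somas, and 12.4, 9.72 and 16.1 in the Ctrl neurites and 8.204, 10.6 and 10.6 in the MG132 neurites. It was lower in neurites in both conditions without overlap, at -1.08 (SE 0.24, adjusted p = 0.00652) after MG132, and in Ctrl at -0.99 (SE 0.24, adjusted p = 0.012). The MG132 calls of Dnajc1 and Dnajc16 were each lost in 6 of 6 fits without 1 of the libraries, with adjusted p up to 0.0419 and 0.0331. Dnajb1 was lower in the neurites after MG132, at -0.73 (SE 0.18, adjusted p = 0.00951), in 3 of 3 pairs without overlap, which is short of 1.7-fold and not called. It was called lower with total counts (-1.51, adjusted p = 0.000875), with totals that leave out the most abundant gene and mitochondrial genes (-1.16, adjusted p = 0.000463) and with at least 10 counts in every library. The block also brought in Dnajc6 as lower, at -1.26 with an adjusted p of 2.01e-05, and Dnajc21 as higher, at 1.20 with an adjusted p of 0.00114. DESeq2 called both in the same directions.

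**Figure D4:**
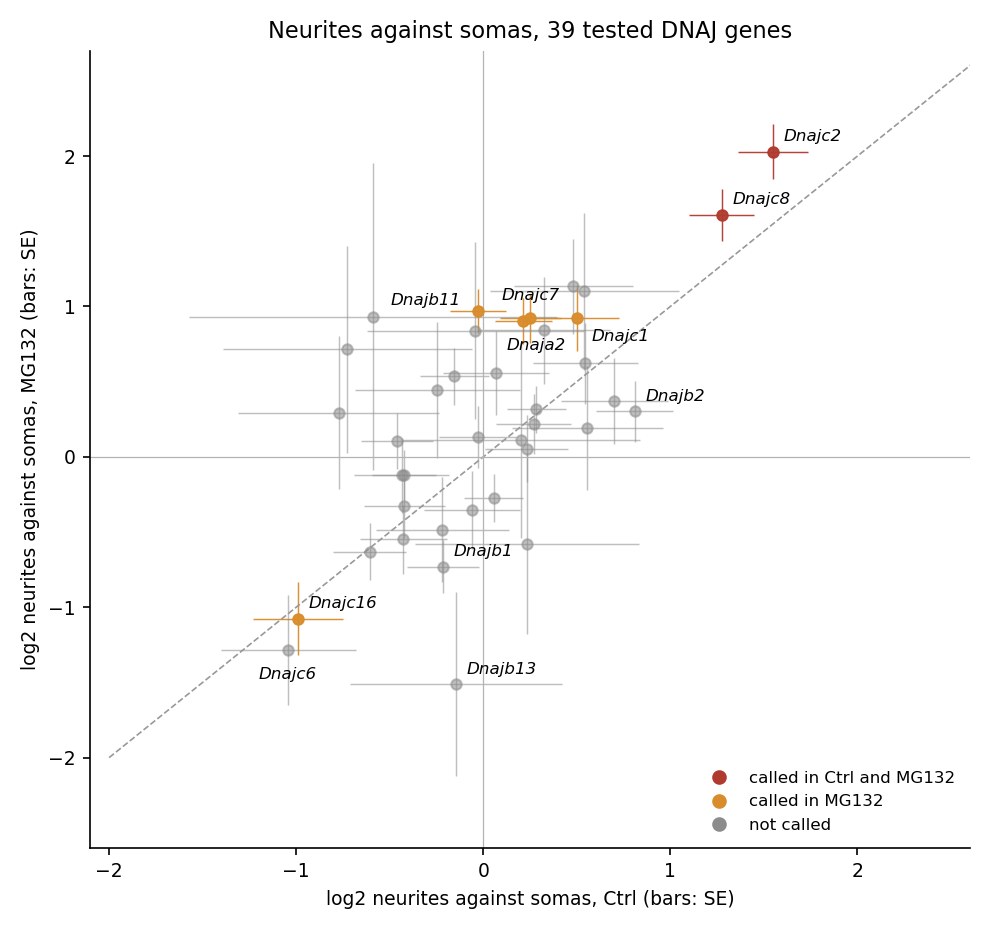
Log2 of neurites against somas in Ctrl (x axis) and after MG132 (y axis) for the 39 tested DNAJ genes, with bars for the standard error; the dashed line marks equal values. The axes come from different libraries, Dnajc2 and Dnajc8 lie at the upper right, and Dnajb11, Dnajc7, Dnaja2 and Dnajc1 lie near 1 on the MG132 axis and at or above -0.03 in Ctrl.

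The higher calls in neurites depended on the scaling between fractions. TMM factors ranged from 0.567 to 1.44. With total counts in place of TMM factors the median of all tested genes moved from -0.04 to -0.70 in Ctrl and from -0.08 to -0.86 after MG132, and the share of higher among all called genes went from 82.8% to 16.1% and from 76.9% to 6.13%. Without the most abundant gene and the mitochondrial genes in the totals, these shares were 27.9% and 26.5%. Dnajc2 kept its direction under total counts, at 0.90 in Ctrl and 1.27 after MG132, as did Dnajc8 at 0.62 and 0.81, whereas Dnaja2, Dnajb11, Dnajc1 and Dnajc7 went to between 0.10 and 0.18 after MG132. The members called lower in neurites under total counts were Dnajb4, Dnajc6 and Dnajc16 in Ctrl, and Dnajb1, Dnajb4, Dnajb5, Dnajb12, Dnajc5, Dnajc6 and Dnajc16 after MG132. For the MG132 response in neurites the same change moved the median of all genes from -0.16 to -0.30 and the higher share from 63% to 47.3%. Under total counts each of the 6 lay above the median of all genes after MG132. Setting values against that median largely undoes the change of scaling, so this is no check on the scaling.

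The response to MG132 was compared between neurites and somas directly. None of the 39 members was called, and edgeR called 0% of all tested genes higher and 0% lower, with 474 and 526 genes at an unadjusted p under 0.05. With the replicate number as a block, edgeR called 14 genes higher and 7 lower, with no DNAJ member among them. DESeq2 called 20 genes higher and 6 lower, Dnajb11 among the former. After Dnajb11, the largest difference relative to its SE was that of Dnaja2, at 0.69 (SE 0.22, adjusted p = 0.478), positive in 3 of 3 pairs. Dnajb1 went the other way, at -0.51 (SE 0.26, adjusted p = 0.738), with the smaller increase in neurites in 3 of 3 pairs. The median SE of this contrast was 0.51 over all tested genes, against 0.36 for the response in somas, so that it resolved less than the single responses.

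Per kilobase of exon, the order of the family changed with treatment. In Ctrl somas Dnajc3 and Dnaja2 led, at 40.1 ± 4.27 and 38.7 ± 0.912 CPM per kilobase (SD, n = 3), a difference within their spread, followed by Dnajb11 at 20.8 and Dnajb9 at 20.4. Dnajb1 was at 4.53 ± 0.326 there, in place 20 of 45. In MG132 somas Dnajb1 led at 80.6 ± 14.7, next to Dnaja2 at 73.4 ± 5.48 and Dnajb9 at 66.9, within its spread. In MG132 neurites Dnaja2 led at 137 ± 13.3, well above Dnajb9 at 72.1 and Dnajc8 at 57.9, and Dnajb1 followed at 48.6 ± 4.91. These places use the merged length of all annotated exons, and the leaders changed with the mean transcript length. Dnajc7 then led in Ctrl somas at 76.3 CPM per kilobase, with Dnaja2 at 67.2 and Dnajc3 in place 8, and Dnaja2 led in both MG132 somas and MG132 neurites. Dnajb1 was then in place 31 in Ctrl somas, 4 in MG132 somas and 10 in MG132 neurites, and Dnaja1, whose merged exons span 8629 bases against a mean transcript of 1809, moved from place 21 to 14 in Ctrl somas.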

How the data were processed

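RNA was counted in 12 libraries, 3 for each of 4 groups taken from the sample labels. The authors trimmed reads with Trimmomatic 0.38.0, aligned them as single-end reads to mm10 with STAR, counted them per gene with featureCounts 2.0.1 at default settings and compared groups with DESeq2 2.11.40.7 (versions from the submitters' processing notes). Each deposited table lists raw read counts by Entrez gene, with no normalization. The strand setting is not given in the sources used here. Symbols came from RefSeq and exon coordinates from GENCODE, both on GRCm38.

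The analysis started from these counts and used edgeR 4.0.16, which builds on limma 3.58.1, under R 4.3.3. Genes with low counts were removed by edgeR's filterByExpr by group, which kept 14185. TMM factors scaled the libraries, and 1 quasi-likelihood model with 4 group means over all 12 libraries gave the 4 pairwise contrasts and the difference of the 2 responses. Genes were called at more than 1.7-fold with an adjusted p under 0.01, or an adjusted p under 0.01 alone for the difference. The model was tested on simulated data, where it recovered the size of the changes and called few unchanged genes. However, it called none of the genes given the smallest change, although that change was above 1.7-fold. A member that was not called may thus still have changed by that much. Counts give the precision, and intervals and floors cover counting error only.

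No source says that libraries of a group came from separate animals, so p-values measure the spread between these libraries, which may be technical. No 2 libraries held identical counts. The labels number the replicates 1 to 3 in each group. Same-numbered libraries deviated together from their group means, with correlations of 0.165 to 0.248 across genes for the groups compared directly (0.0972 at the lowest between Ctrl neurites and MG132 somas, which were not compared), so the numbers were taken to pair the libraries. The date recorded with MG132 neurites replicate 3 differs from that of the other libraries numbered 3, which is a doubt about its pairing. The main model did not use this pairing, so its SEs and adjusted p-values are those of unpaired groups. A fit with the replicate number as a block is given where it changes a call.

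The alternatives were other scalings, filters, thresholds, DESeq2 1.42.0, the block and each library left out. Values in every library are given for members called in any comparison between groups and for the 2 members with the largest difference between responses relative to its SE, and the partner genes named are the main HSP70 of each compartment. The members, role groups, partner and marker lists were chosen with earlier results of these data known. Protein sequences were not used here.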

Additional observations from a re-analysis of the deposited data

Results flagged for a closer look

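Dnajb11 was singled out because its MG132 library was below the Ctrl library in 3 of 3 same-numbered pairs of somas and above it in 3 of 3 pairs of neurites. The somas groups overlapped, and their difference was not called (-0.13, SE 0.15, edgeR adjusted p = 0.546). The log2 response in neurites minus that in somas was 0.9997 (SE 0.21). The difference itself was tested, and edgeR gave an adjusted p of 0.328 in the model of the report, 0.0274 with the replicate block, and between 0.194 and 0.711 when 1 of the 12 libraries was left out, while DESeq2 gave 1.04 with an adjusted p of 0.0016.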

How the results depend on the processing

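Counts of called members are given here as higher and lower in the order somas response (9 and 1 in the report), neurites response (11 and 0), neurites against somas in Ctrl (2 and 0) and after MG132 (6 and 1). With the replicate block they were 10 and 2, 13 and 1, 3 and 2, and 7 and 2, and the block ended no call of a named member. Total counts gave 6 and 0, 7 and 0, 0 and 3, and 1 and 7, and totals without the most abundant gene and mitochondrial genes 8 and 1, 9 and 0, 2 and 5, and 2 and 5. DESeq2 gave 9 and 2, 10 and 1, 3 and 1, and 7 and 2, and 1 higher for the difference between responses (0 in the report). DESeq2 size factors in edgeR and no low-count filter each gave 1 lower in Ctrl neurites. At least 10 counts in every library gave 7 higher in the neurites response, 1 lower in Ctrl neurites and 2 lower in MG132 neurites. Fitting only the libraries compared gave 0 lower in MG132 neurites. An unadjusted p under 0.01 gave 2 lower in somas, 1 lower in the neurites response, 1 lower in Ctrl neurites, 2 lower in MG132 neurites and 2 higher for the difference between responses. An adjusted p under 0.05 with no fold threshold gave 11 and 2, 17 and 1, 3 and 2, and 7 and 4. A log2 fold change above 1.7 gave 4 and 0, 5 and 0, 0 and 0, and 1 and 0. Over all genes, higher and lower calls in the same order were 1276 and 792, 1312 and 772, 873 and 181, and 982 and 295, against 492 and 417, 482 and 538, 179 and 936, and 138 and 2115 with total counts. Totals without the most abundant gene and mitochondrial genes gave 439 and 1132 in Ctrl and 471 and 1304 after MG132. Lower calls were 1423, 1297, 492 and 579 with DESeq2 and 1384, 1383, 549 and 756 with the block, 450 in Ctrl without the low-count filter, and 475 (neurites response) and 155 (after MG132) with only the libraries compared. The block called 14 and 7 for the difference between responses. Without 1 library the lower calls ranged from 0 to 1 in Ctrl neurites (1 without Ctrl neurites replicate 3) and were 0 in each fit after MG132, and the higher calls were 8 in each fit in somas, 9 to 12 in the neurites response, 2 in each fit in Ctrl and 5 in each fit after MG132. None of the called differences, nor the difference between responses of Dnaja2 and Dnajb11, changed sign under any alternative. Among uncalled members, total counts turned the sign of Dnajc5 and Dnajc17 in the neurites response (-0.09 and -0.14), of Dnajc30, at 0.00, in somas, and of 15 and 16 of 39 members between compartments in Ctrl and after MG132. Why total counts reverse the balance between compartments was not tested. With 3 libraries a group, the median SE of a log2 fold change was 0.36 for a pairwise contrast.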
